A study of Mus musculus with 30 samples.

Results

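Digestive enzymes and zymogen granule proteins are the products of pancreatic acinar cells, and 31 of their genes were followed here through RNA-seq libraries of mouse islets exposed to cadmium. The 31 genes are a list of symbols, chosen with earlier results of these data known and found among the 54232 gene IDs of each library. The trypsinogens were left out of it and are treated at the end as a separate list. The 31 comprise 7 chymotrypsins and elastases, 2 carboxypeptidases, 6 enzymes and cofactors of lipid digestion, 3 genes for amylases and ribonuclease, 6 zymogen granule proteins, 3 proteins of folding and export in the endoplasmic reticulum, and 4 other acinar genes.

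Acinar cells make up most of the exocrine pancreas and surround the islets. They synthesise digestive enzymes, many of them as inactive precursors, fold them in a very large endoplasmic reticulum and pack them into zymogen granules. Release into the ducts follows when cholecystokinin or acetylcholine raises cytosolic calcium. The enzyme genes share a tissue-specific transcription factor complex, PTF1, which contains PTF1A and RBPJL and binds paired E-box and TC-box sequences. Islets are freed from this tissue by digestion and purification, and some exocrine tissue commonly stays with them.

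The series measured islet RNA from male wild-type C57BL/6N mice. Mice were given vehicle (5 libraries) or 1 mM CdCl2 (4 libraries) for 6 weeks, or vehicle (6 libraries) or 1 mM CdCl2 (5 libraries) for 18 weeks, and isolated islets were kept for 96 hours with vehicle or 0.5 uM CdCl2 (5 libraries each). Age and dosing route were not found in the sources used here. Since the labels do not tell whether the libraries of a group are separate animals or cultures, the p-values refer to the spread among libraries, part or all of which may be technical.

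Total counts were 49564350 to 58366797 per library at 6 weeks, 9092759 to 51852364 at 18 weeks and 24197072 to 26549350 in culture. At 18 weeks vehicle 4, vehicle 6 and cadmium 5 were the shallow libraries, with 14751249, 9092759 and 21573301 counts. As a check of the islet label, Ins1 and Ins2, the insulin genes, held 10.4 to 21.9% of counts in every library. Levels are given in CPM, a gene's counts per 1e6 counts of its library, unless a value per length is named.

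Per kilobase of exon, Ctrb1 was the most abundant of the 31 genes in each of the 4 in vivo groups and Pnlip the next. In the plain vehicle libraries of 6 weeks Ctrb1, which encodes chymotrypsinogen B, averaged 6049 ± 1499.8 RPKM (CPM on normalised library sizes per kilobase of exon; SD, n = 5). Pnlip, the main triglyceride lipase of pancreatic juice, averaged 2068 ± 473 RPKM in the same libraries. Cpa1 (carboxypeptidase A1), Cela2a and Cela1 (elastases), Cel (the bile salt-activated carboxyl ester lipase), Clps (colipase, the cofactor of PNLIP), Ctrl (a chymotrypsin-like protease), Rnase1 (pancreatic ribonuclease) and Cpb1 (carboxypeptidase B) followed, between 1946 and 1023 RPKM. From Pnlip to Cpb1 neighbours in this order differed by less than the larger of their SDs, except Cela1 (1391 ± 285) and Rnase1 (1077 ± 245). The lowest were Amy1 at 2.83 ± 0.450, Amy2a5 at 1.29 ± 0.316 and Cela3a at 0.776 ± 0.162 RPKM (SD, n = 5). The amylase values are uncertain, since reads can be divided among near-identical copies: in the same 5 libraries Amy2b held 15030 reads against 1264 on Amy2a5, 28 on Amy2a1 and 0 on Amy2a2, Amy2a3 and Amy2a4. Amy1 also shares 32.7% of its exon bases with Rnpc3, and Ctrc shares 305 exon bases with Cela2a, which makes their counts uncertain as well.

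**Figure D1:**
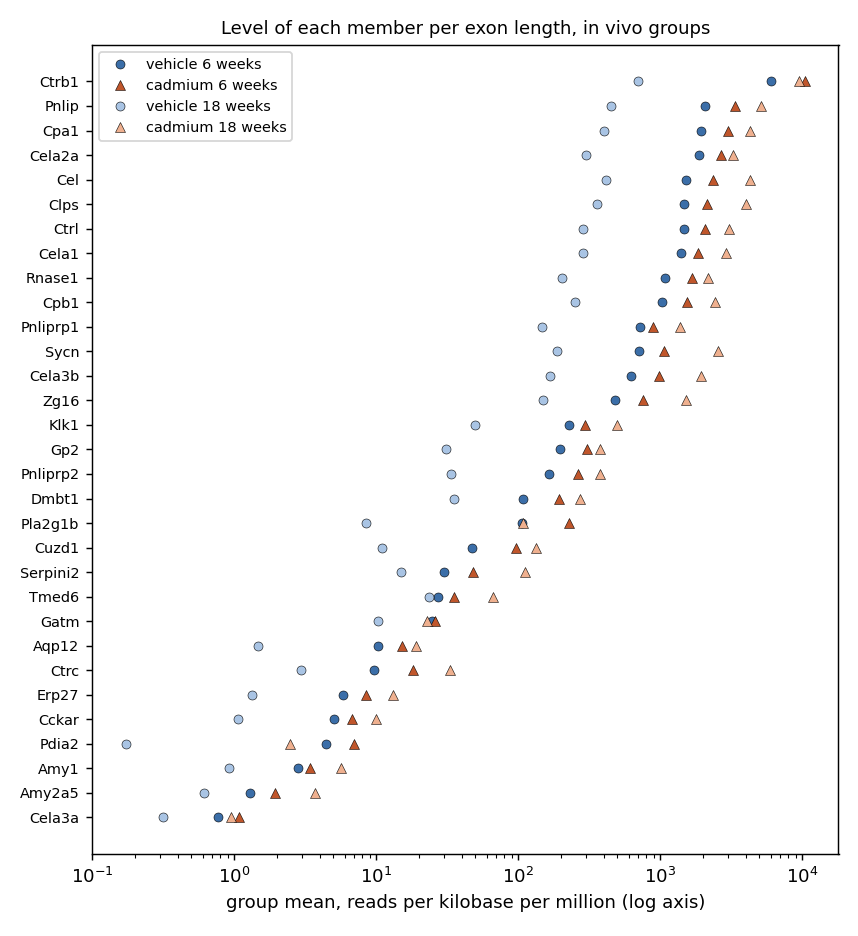
Mean level of each of the 31 genes in the 4 in vivo groups, in RPKM on a log axis; circles are vehicle and triangles cadmium groups. Ctrb1 stands first and Pnlip next in all 4 groups, and the 18-week vehicle circles lie to the left of the 6-week ones.

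Promoter sequence was available for 25 of the 31 genes in the RefSeq table of build GRCm38.p6. Within the 250 bases upstream of the start, 3 of these 25 (12%) held an E-box, CANNTG, followed after 3 to 6 or 13 to 17 bases by a TC-box, TTTCCC, on either strand, against 288 of 32841 promoters in the table (0.877%). Each box alone was common: TTTCCC stood on either strand in 24% of the 25 and 21.95% of all promoters, and CANNTG in 80.0% and 66.2%. A TATAAA within the last 50 bases stood in 4 of the 25 (16%) and in 2.63% of all. A match describes letters in this window and is not a measured binding site. The 3 genes with the paired boxes are among the 10 most abundant per length. So are Pnlip, Cpa1, Cela2a, Ctrl, Rnase1 and Cpb1, whose windows held no such pair. The 3 promoters with the pair are shown with the boxes in capitals. In Cela1 the capitals TATAAA, whose first base is at position -27 from the start, are also marked. All 3 genes lie on the minus strand, and the sequences read 5′ to 3′ toward the start at chr8:111691011-111691260 (Ctrb1), chr15:100687921-100688170 (Cela1) and chr2:28563404-28563653 (Cel).
Ctrb1: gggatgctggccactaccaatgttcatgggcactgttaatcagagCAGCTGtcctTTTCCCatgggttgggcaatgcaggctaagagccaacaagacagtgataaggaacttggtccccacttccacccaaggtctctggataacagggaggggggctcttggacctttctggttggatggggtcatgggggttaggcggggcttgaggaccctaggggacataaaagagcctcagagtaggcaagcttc
Cela1: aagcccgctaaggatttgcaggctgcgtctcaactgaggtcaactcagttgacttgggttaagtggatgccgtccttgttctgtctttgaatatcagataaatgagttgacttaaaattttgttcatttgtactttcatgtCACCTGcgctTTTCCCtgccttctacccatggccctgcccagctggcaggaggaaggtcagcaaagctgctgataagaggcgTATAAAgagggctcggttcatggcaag
Cel: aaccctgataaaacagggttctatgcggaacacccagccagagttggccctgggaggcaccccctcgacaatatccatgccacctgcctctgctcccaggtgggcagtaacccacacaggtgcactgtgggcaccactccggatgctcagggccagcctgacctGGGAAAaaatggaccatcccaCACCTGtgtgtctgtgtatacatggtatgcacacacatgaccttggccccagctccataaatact
In Cel the pair reads on the other strand, so its TC-box appears as GGGAAA ahead of the E-box CACCTG. Ctrb1 carries CAGCTG and Cela1 carries CACCTG.

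At 18 weeks the digestive enzyme and granule transcripts were higher with cadmium across every functional class. The 31 genes together held 2.83, 1.37, 7.57, 15.9 and 5.34% of counts in the 5 cadmium libraries. In the 6 vehicle libraries they held between 0.228 and 1.60%, with a median of 0.621%. All cadmium libraries except cadmium 2 lay above every vehicle library. The means were 6.61% ± 5.73 (SD, n = 5) and 0.742% ± 0.462 (SD, n = 6). In whole-preparation RNA, a different number of acinar cells and a different amount of RNA per acinar cell cannot be told apart.

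**Figure D2:**
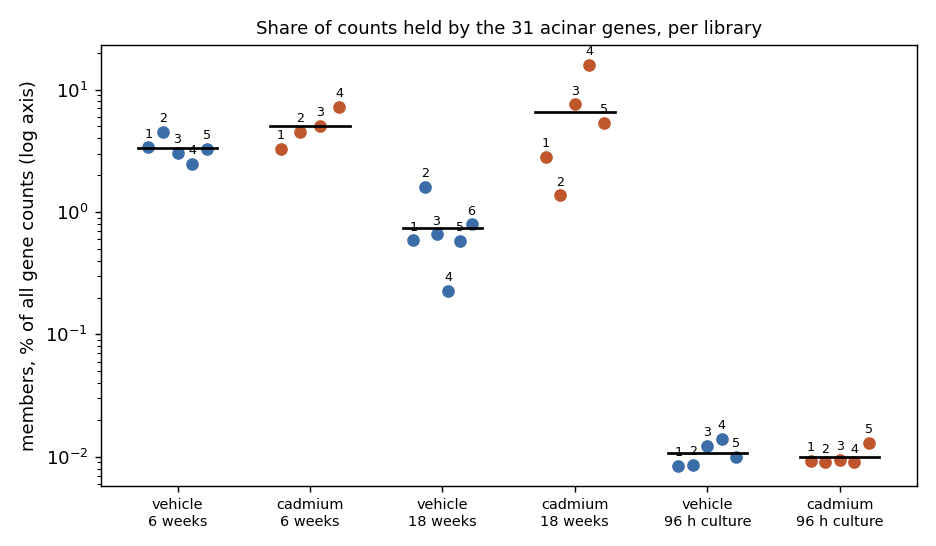
Share of each library's counts held by the 31 genes together, in percent on a log axis, with 1 point per library in each of the 6 groups. The 18-week cadmium libraries spread from 1.37 to 15.9% against 0.228 to 1.60% in their vehicle group, and all 10 cultures sit near 0.01%.

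By edgeR's quasi-likelihood test, 25 of the 31 genes rose at 18 weeks and none fell (Benjamini-Hochberg adjusted p under 0.05). Over all 20911 genes tested 0.344% rose and 0.0143% fell. Since the list was chosen with earlier results of these data known, the 2 rates are set side by side without a test. All 31 were higher in cadmium, with a median log2 fold change of 3.41 against 0.00029 over all genes. The 25 comprised 6 of the 7 chymotrypsins and elastases, both carboxypeptidases, all 6 lipid genes, 2 of the 3 amylase and ribonuclease genes, 5 of the 6 granule genes, 2 of the 3 reticulum genes and 2 of the 4 others. The 6 that did not pass were Dmbt1, Serpini2, Amy2a5, Tmed6, Cela3a and Gatm. No member passed when vehicle 1, 3, 4, 5 or 6 or cadmium 3 or 4 was left out, where the lowest edgeR adjusted p of a member was 0.0754 to 0.141, and 27 to 30 passed when vehicle 2 or cadmium 1, 2 or 5 was left out. Over these leave-outs the median log2 fold change of the 31 ran from 2.55, without cadmium 4, to 3.74, and without the 3 shallow libraries it was 3.39 with 0 called.

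Ctrb1 (ENSMUSG00000031957, chr8:111686519-111691010, minus strand, mm10) was the 1 protease gene whose groups did not overlap. Its cadmium libraries held 3234, 1585, 8522, 16048 and 5748 CPM, and its vehicle libraries 177 to 1416 with a median of 501. Every cadmium library was above every vehicle library. The log2 fold change was 3.77 ± 0.61 (edgeR, adjusted p = 0.0376), and the ratio of mean CPM was 11.4. Ctrc, chymotrypsin C, which regulates trypsinogen activation, Ctrl, Cela1, Cela2a and Cela3b rose by 3.35 to 3.54 on the log2 scale. Cela3a, a further pancreatic elastase-type protease (chr4:137401554-137409791), was near the detection limit, at 0.300, 0.231, 0.961, 2.10 and 0.139 CPM in cadmium and 0 to 1.09 CPM (median 0.182) in vehicle libraries. Only 1 of its 5 cadmium values exceeded all vehicle values, and the log2 fold change of 1.40 ± 0.80 did not pass (edgeR, adjusted p = 0.355).

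Both carboxypeptidases, which trim amino acids from the carboxyl ends of peptides, rose. Cpb1 (chr3:20248264-20275733) held 3053, 1228, 8019.8, 15851 and 5511 CPM in cadmium and 236 to 1789 CPM (median 764) in vehicle libraries. Cadmium 2 fell inside the vehicle range and the other 4 cadmium libraries above it. Cpb1 changed by 3.29 ± 0.62 and Cpa1 by 3.42 ± 0.60 log2 units (edgeR, adjusted p = 0.0376 for each).

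All 6 genes of lipid digestion rose. Pnlip (chr19:58652498-58681788, plus strand) stood at 3698, 1908, 10362, 22474 and 8945 CPM in cadmium and at 295 to 2165 CPM (median 896) in vehicle libraries. Only cadmium 2 overlapped the vehicle libraries. Its log2 fold change was 3.51 ± 0.62 (edgeR, adjusted p = 0.0376), a ratio of mean CPM of 9.48. Pla2g1b, the secreted pancreatic phospholipase A2, rose by 3.67 ± 0.66 and was 1 of 3 members whose groups did not overlap. Ctrb1 and Sycn were the others, and 0.368% of all genes tested lay fully higher in this comparison. Pnliprp2 and Pnliprp1, the lipase-related proteins whose genes follow Pnlip on chromosome 19, rose by 3.50 and 3.22, Clps by 3.48 and Cel by 3.38.

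Among the starch and RNA enzymes, Rnase1 (chr14:51144998-51146785) held 706, 327, 2003, 4552 and 1304 CPM in cadmium and 67.1 to 449 CPM (median 155) in vehicle libraries. The overlap came from cadmium 2 and vehicle 2, and the log2 fold change was 3.41 ± 0.64 (edgeR, adjusted p = 0.0376). Amy1 rose by 2.55 ± 0.47, while Amy2a5 was at 2.57 ± 0.58 and did not pass (edgeR, adjusted p = 0.0831). Both values carry the uncertainty of reads shared among the amylase copies.

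Sycn, which encodes syncollin of the zymogen granule membrane (chr7:28540885-28542209, plus strand), led the granule genes. Its cadmium libraries held 435, 219, 1319, 3106 and 772 CPM, all above its vehicle libraries at 40.7 to 208 CPM (median 85.1). The log2 fold change was 3.77 ± 0.65 (edgeR, adjusted p = 0.0376). Gp2, the abundant lipid-anchored glycoprotein of the granule membrane, Cuzd1, a granule membrane protein, Zg16, a granule lectin, and Klk1, tissue kallikrein, rose by 3.31 to 3.59. Dmbt1, a mucin-like scavenger receptor glycoprotein, stood at 818, 443, 1799.5, 3568 and 1459 CPM in cadmium and 69.8 to 660.4 CPM (median 180) in vehicle libraries. Cadmium 2 was below vehicle 2, and the change of 2.93 ± 0.60 did not pass (edgeR, adjusted p = 0.0555).

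Of the genes for folding and export, Pdia2, a pancreas-enriched protein disulfide isomerase (chr17:26195999-26199087), had the largest log2 fold change of the 31. It stood at 1.06, 0.463, 4.31, 10.01 and 1.39 CPM in cadmium and 0.142 to 0.542 CPM (median 0.240) in vehicle libraries, and only cadmium 2 fell among the vehicle values. The 6 vehicle libraries held 49 reads of it in all, 4 to 13 each. The change was 4.12 ± 0.81 (edgeR, adjusted p = 0.0473). Erp27, a disulfide isomerase relative of the reticulum, rose by 3.26 ± 0.61. Tmed6, a p24-family protein of early secretory transport, held 37.0, 18.7, 53.7, 88.9 and 51.0 CPM in cadmium and 12.5 to 29.2 CPM (median 20.1) in vehicle libraries, and did not pass at 1.47 ± 0.36 (edgeR, adjusted p = 0.0975).

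Of the remaining 4 genes 2 rose. Cckar, the receptor through which cholecystokinin drives enzyme release, and Aqp12, an acinar aquaporin, rose by 3.18 ± 0.58 and 3.58 ± 0.62. Serpini2, a pancreatic serpin, stood at 68.1, 22.8, 149, 286 and 149 CPM in cadmium and 4.68 to 49.5 CPM (median 19.4) in vehicle libraries; its change of 2.90 ± 0.60 did not pass (edgeR, adjusted p = 0.0585). Gatm, the first enzyme of creatine synthesis, had the smallest difference, with 39.7, 37.4, 63.6, 98.1 and 61.8 CPM in cadmium and 21.0 to 38.6 CPM (median 32.2) in vehicle libraries. Only cadmium 2 overlapped, and the change was 1.135 ± 0.26 (edgeR, adjusted p = 0.0831).

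**Figure D3:**
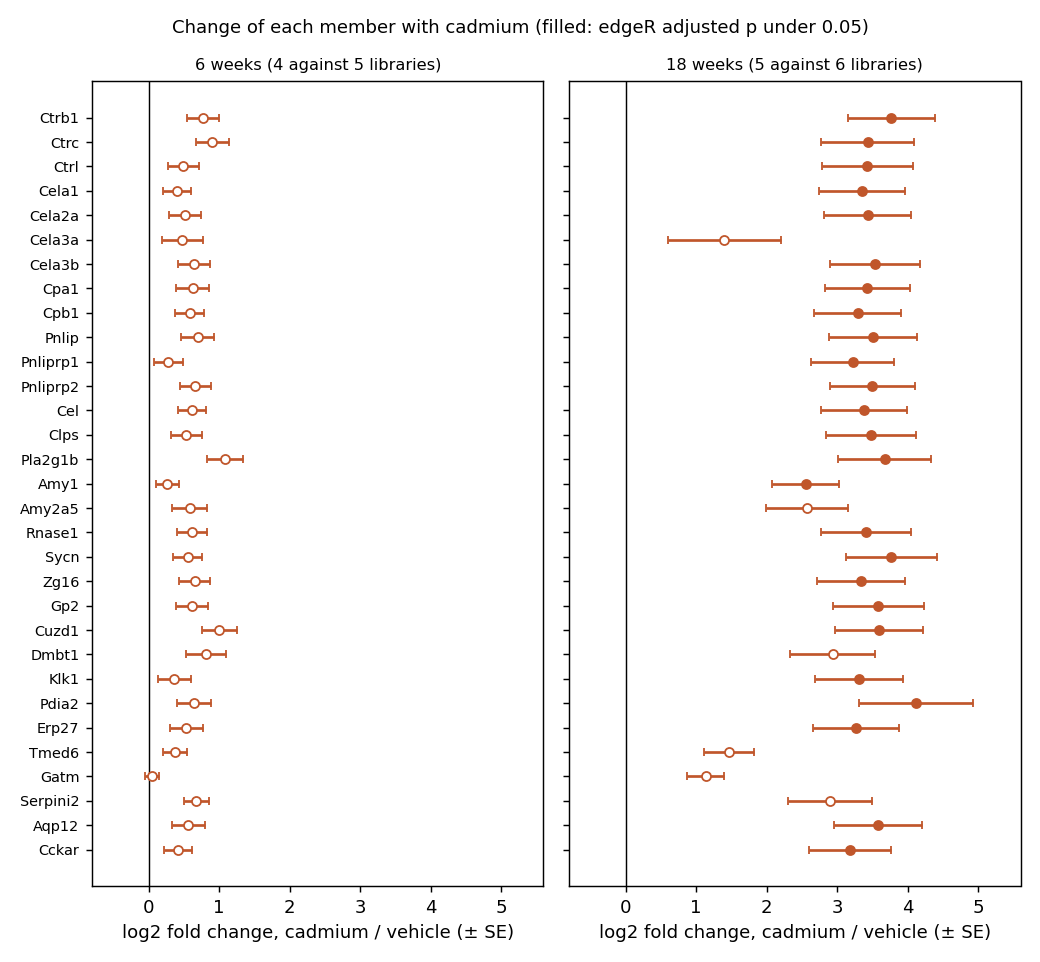
Log2 fold change with cadmium over vehicle (± SE) of each of the 31 genes, at 6 weeks and at 18 weeks, with filled symbols for those called. At 18 weeks 25 symbols are filled between 2.55 and 4.12. At 6 weeks none is filled and the values lie between 0.05 and 1.09.

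At 6 weeks no member passed, and over all 18080 genes tested 0% did. The 31 genes held 3.27, 4.52, 5.04 and 7.18% of counts in the cadmium and 3.36, 4.54, 3.04, 2.47 and 3.30% in the vehicle libraries. Cadmium 3 and 4 were above all vehicle libraries, and cadmium 1 and 2 were inside their range. All 31 log2 fold changes were above 0, with a median of 0.59 against -0.0019 over all genes, but each had an edgeR adjusted p of 0.919, or 0.961 for Gatm. Without adjustment 24 members and 923 genes in all had p under 0.05 (edgeR), and DESeq2 called 10 genes, of which 0 were members.

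The largest differences at 6 weeks were those of Pla2g1b at 1.09 ± 0.26, Cuzd1 at 1.00 ± 0.25 and Ctrc at 0.90 ± 0.23. Ctrb1 held 5633, 7224, 8029.6 and 12578 CPM in cadmium and 4981, 6812, 4574, 3496 and 5045 CPM in vehicle libraries, so that 3 of 4 cadmium values exceeded all vehicle values. Its difference was 0.77 with a 95% interval of 0.26 to 1.29. Pnlip held 4181, 5805, 7166 and 10042 CPM against 4247, 5764, 3698, 3285 and 4297 CPM, a difference of 0.70 with a 95% interval of 0.19 to 1.22. Gatm was the least different, at 59.9, 71.6, 72.9 and 80.2 CPM against 71.9, 75.0, 79.3, 60.9 and 62.5 CPM, with an interval of -0.16 to 0.27 and a difference of -0.014 in place of 0.053 when cadmium 4 was left out. No member's groups were fully apart, where 0.382% of all genes lay fully higher.

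The difference between the cadmium effects at 18 and at 6 weeks was tested as a contrast in 1 fit of all 6 groups. It was above 0 for 21 of the 31 genes by edgeR at an adjusted p under 0.05, while 0.898% of 22721 genes were called in this direction, and its median over the 31 was 2.78. Pdia2 (3.51 ± 0.80, adjusted p = 0.0340), Sycn (3.20 ± 0.68, 0.0326), Pnlip (2.80 ± 0.66, 0.0345), Rnase1 (2.78 ± 0.67, 0.0350) and Gatm (1.06 ± 0.28, 0.0495) were among these. Ctrb1, with 2.99 ± 1.08, was not (edgeR, adjusted p = 0.115), nor were both carboxypeptidases, Ctrc, Cela3a, Pnliprp1, Amy2a5, Dmbt1, Tmed6 and Serpini2. The spread of each gene in this fit was estimated over all 30 libraries, including the cultures, where most members had few reads. No fit without the cultures was made, so members called and not called here are not read as differing in their cadmium effects. The count of 21 fell to 0 when libraries were scaled by their totals alone, to 7 by DESeq2, and to 0 without 6-week vehicle 1, 2 or 3, 6-week cadmium 1 or 3, 18-week vehicle 6 or 18-week cadmium 3 or 4. It was 2 without 6-week cadmium 2 and 4 without 18-week vehicle 1.

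The vehicle groups themselves differed. From 6 to 18 weeks 29 of the 31 genes fell by edgeR, with a median log2 difference of -2.12; 35.9% of 20551 genes fell and 71.8% were called in either direction in this comparison. Time and any difference in how the libraries of the 6-week and 18-week groups were made cannot be told apart. Without the 3 shallow libraries 28 members were still called. Pdia2 fell by 5.05 ± 0.28 (edgeR, adjusted p = 9.77e-10), from 7.21, 9.49, 5.99, 5.35 and 7.63 CPM at 6 weeks to at most 0.542 CPM. Pla2g1b fell by 3.69 ± 0.39 and Ctrb1 by 3.15 ± 0.37. Cela3a (-1.11 ± 0.54, edgeR adjusted p = 0.0772) and Tmed6 (-0.22 ± 0.18, adjusted p = 0.307) did not pass. The 18-week values lay fully below the 6-week values for 24 members, where 21.1% of all genes did so.

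Because the 18-week vehicle libraries enter both comparisons, the 18-week cadmium and 6-week vehicle groups are set side by side without a test. Mean CPM in the 18-week cadmium group was 3.40 times that of the 6-week vehicle group for Serpini2, 3.15 times for Sycn and 3.06 times for Ctrc. It was 2.23 times for Pnlip and 1.41 times for Ctrb1. For Pdia2, Gatm and Pla2g1b the 18-week cadmium mean was the lower, at 0.483, 0.860 and 0.896 times. Cadmium 4 weighed heavily in these means. Without it, in an alternative added after seeing the data, the ratio was 2.45 for Serpini2, 1.84 for Sycn, 1.85 for Ctrc, 1.46 for Pnlip, 0.958 for Ctrb1, 0.253 for Pdia2, 0.724 for Gatm and 0.559 for Pla2g1b, and 25 members rather than 28 had a ratio above 1. Of the 5 cadmium libraries, 2 lay above all 6-week vehicle libraries for Ctrb1 and 2 below all of them, and for Pdia2 4 lay below all of them.

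The same libraries were high or low for nearly all of the 31 genes. Within the 18-week cadmium group cadmium 4 was highest for all 31 and cadmium 2 lowest for 30, Cela3a being the exception. In the 18-week vehicle group vehicle 2 was highest for 30 (all but Pdia2) and vehicle 4 lowest for 28. At 6 weeks vehicle 2 was highest for 29 and vehicle 4 lowest for 30, and cadmium 4 was highest for 30 and cadmium 1 lowest for 31. For the 30 genes with a mean count of at least 100 over the 20 in vivo libraries, the median SD of log2 CPM within the 18-week cadmium group was 1.38, and 0.17 once each library's median over these genes was subtracted. The corresponding values were 0.92 and 0.22 in the 18-week vehicle, 0.32 and 0.086 in the 6-week vehicle and 0.47 and 0.096 in the 6-week cadmium group. After this step Gatm had the largest SD in the 6-week vehicle (0.29) and 18-week cadmium group (0.90). In the 6-week cadmium group it was Dmbt1 (0.41), and in the 18-week vehicle group Pdia2 (1.28, from 4 to 13 reads per library). Among the 27 genes with a mean count of at least 100 in the 18-week vehicle group itself, Gatm had the largest SD, at 0.74. This floor was added after seeing the data. Before the subtraction Gatm's CPM differed less between libraries than those of most members, so subtracting the shared swing itself adds spread to Gatm.

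**Figure D4:**
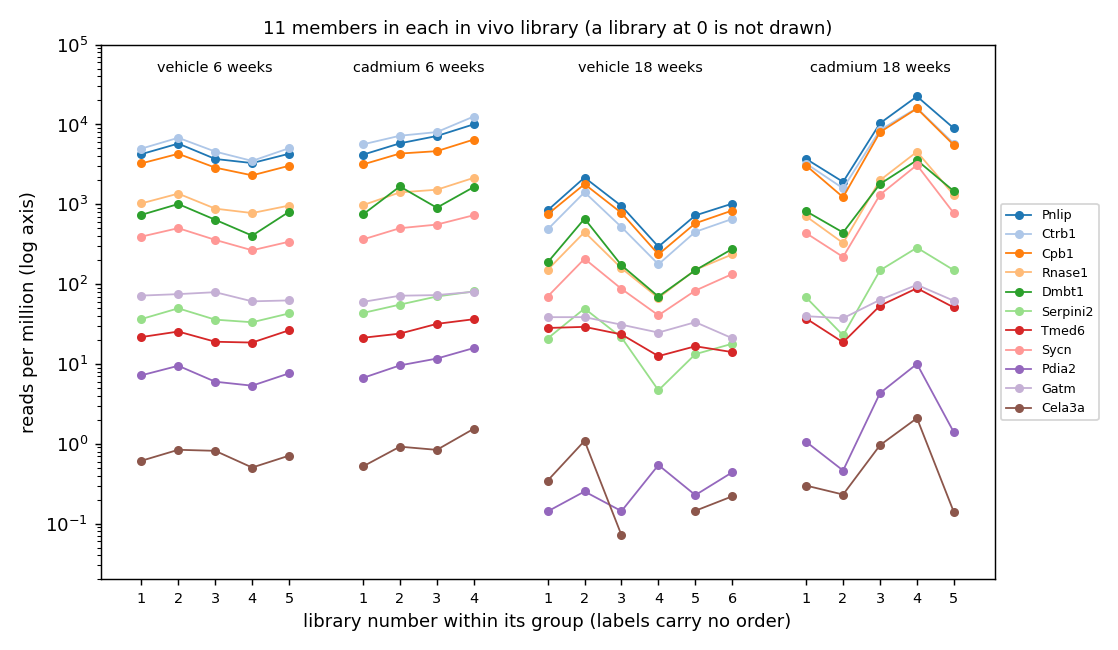
CPM (log axis) of 11 members in each in vivo library; lines join the points of a member within a group and carry no order. Most curves run in parallel, with cadmium 4 highest and cadmium 2 lowest at 18 weeks (lowest for all but Cela3a), while Gatm and Tmed6 are flatter than the others.

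Within the pool of reads on the 31 genes, the shares of some genes differed between groups and those of others were close. Ctrb1 took 14.9% ± 0.431 (SD, n = 5) of the reads on the 31 genes in 6-week vehicle libraries and 16.7% ± 0.815 (n = 4) with cadmium. At 18 weeks it took 8.13% ± 0.419 (n = 6) in vehicle and 11.02% ± 0.620 (n = 5) in cadmium libraries. These shares did not overlap between vehicle and cadmium at either time, running from 14.2 to 15.3% and 15.9 to 17.5% at 6 weeks and from 7.74 to 8.83% and 10.1 to 11.6% at 18 weeks. At 6 weeks the shares of 10 of the 31 genes did not overlap, with Ctrb1, Ctrc, Pla2g1b and Cuzd1 fully above vehicle in cadmium and Ctrl, Cela2a, Pnliprp1, Amy1, Klk1 and Cckar fully below. At 18 weeks only Ctrb1 was fully above and only Tmed6 fully below. The shares of 1 library add up to a whole, so they do not vary independently, and no test was made on them. Such shares are defined only within the 31 genes, so these counts have no rate over all genes to be read against. Cpa1 by comparison held 9.54, 9.63, 9.55 and 9.86% in the same order of groups, and Pnlip 12.8, 13.5, 13.4 and 14.3%. Chymotrypsins and elastases together took 40.6 and 40.4% at 6 weeks and 32.7 and 34.6% at 18 weeks, and the lipid genes 29.8, 29.6, 33.5 and 33.6%.

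Some of the smaller members shifted within the pool and others did less so. Erp27 held 0.0488, 0.0460, 0.0536 and 0.0492% of the reads on the 31 genes in the vehicle and cadmium groups of 6 and then 18 weeks. Pla2g1b held 0.213% of the reads on the 31 genes in the 6-week vehicle, 0.292% in the 6-week cadmium, 0.0774% in the 18-week vehicle and 0.0978% in the 18-week cadmium group. Pdia2 held 0.0214 and 0.0217% at 6 weeks but at most 0.00555% in 5 of the 6 vehicle libraries of 18 weeks; vehicle 4, a shallow library, held 0.0238%. Gatm held 0.215, 0.150, 0.549 and 0.135% in that order of groups, and Tmed6 0.0677, 0.0580, 0.339 and 0.0979%. Both had their largest share in the 18-week vehicle libraries, where the pool was smallest of the in vivo groups.

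In cultured islets the digestive enzyme transcripts were nearly absent, with or without cadmium. The 31 genes held 0.00847, 0.00859, 0.0123, 0.0141 and 0.00999% of counts in vehicle and 0.00925, 0.00905, 0.00943, 0.00901 and 0.0129% in cadmium cultures, ranges that overlap. Against the 6-week vehicle libraries all 31 fell in vehicle cultures by edgeR, where 34.8% of 17605 genes fell, with a median of -10.23 log2 units. The labels name no libraries of the same islets before culture. Time in culture and any difference in how the culture and in vivo libraries were made cannot be told apart. Ctrc, Cela3a and Amy2a5 had 0 reads in all 10 cultures, at least 549-, 29.6- and 205-fold lower than at 6 weeks when 3 reads over the 5 vehicle cultures are taken as the floor. Pnlip had 29 reads in the 10 cultures and was 35686-fold lower in mean CPM in the vehicle cultures.

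Gatm, Tmed6 and Amy1 were within 3-fold of their mean CPM at 6 weeks in vehicle cultures. Cela1 is set with them here, since its culture reads were fewer only than those of Gatm. It was 214-fold lower, which lies inside the range of the other genes given below. Ctrl, Cel, Pla2g1b and Rnase1 also had reads in every culture. Ctrb1, set with the others, had 1468 reads, more than Amy1. For Amy1 the source of the reads is uncertain, since 32.7% of its exon bases are shared with Rnpc3. The amylase genes Amy2b, Amy2a5 and Amy2a1 had 0 reads in the cultures. Gatm had 15422 reads in the 10 cultures, at 56.6 to 66.1 CPM; in vehicle cultures it fell by 0.46 ± 0.065 log2 units against 6 weeks and rose by 0.72 ± 0.10 against the 18-week vehicle libraries (edgeR, adjusted p = 3.60e-05 and 1.82e-05). It was the only member to rise against 18 weeks, where 27 of 29 tested fell, beside 30.6% of all genes rising and 36.6% falling. Tmed6 had 2755 reads at 8.87 to 12.7 CPM, Amy1 849 reads at 2.72 to 3.97 CPM and Cela1 3428 reads at 9.79 to 17.9 CPM. These 4 genes made up 63.9 to 97.6% of the reads on the 31 genes in the cultures and 7.30 to 10.7% in the 20 in vivo libraries. For 21 others with more than 3 reads in the vehicle cultures, the level was 157- to 35686-fold lower than at 6 weeks, with a median of 1750-fold.

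**Figure D5:**
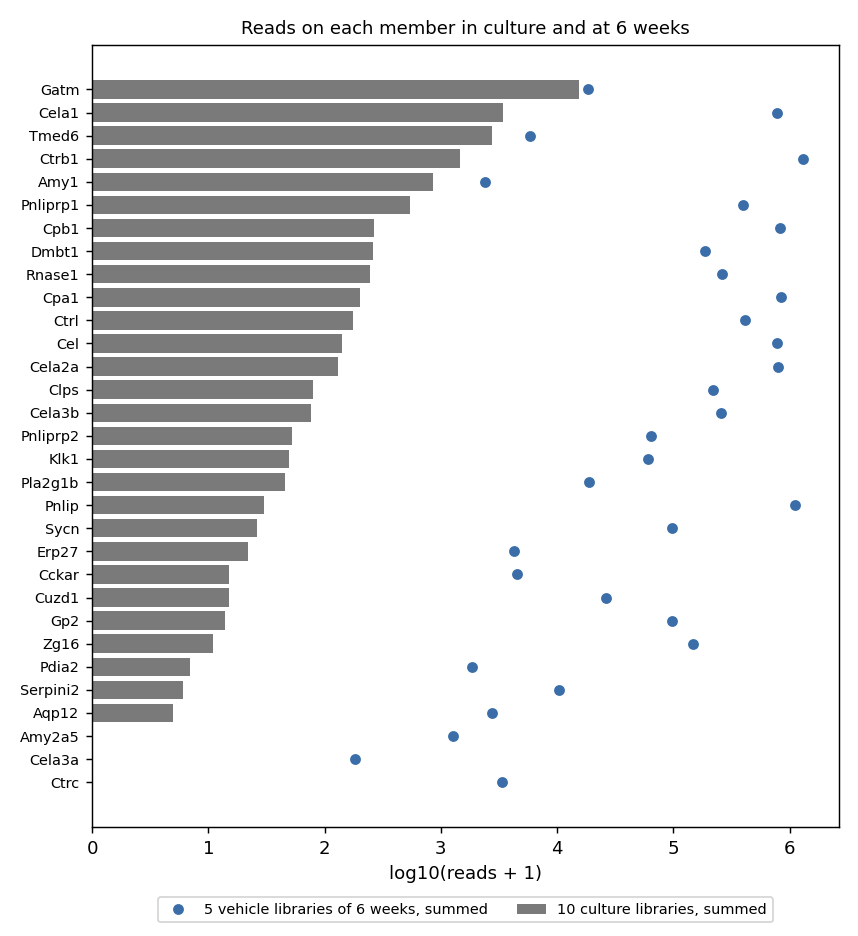
Reads on each of the 31 genes, as log10(reads + 1), summed over the 10 cultures (bars) and over the 5 vehicle libraries of 6 weeks (points). Gatm, Cela1, Tmed6, Ctrb1 and Amy1 carry the longest bars, and Ctrc, Cela3a and Amy2a5 have no reads in culture.

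The other 27 genes differed widely from culture to culture. Summed over them, the vehicle cultures held 2.10, 3.68, 34.2, 51.0 and 7.62 CPM and the cadmium cultures 7.87, 3.10, 4.13, 2.16 and 35.4 CPM. Vehicle 3 and 4 and cadmium 5 were the high ones. Ctrb1 followed the same libraries, with 0, 1.78, 11.8, 22.1 and 2.11 CPM in vehicle and 2.64, 0.331, 1.22, 0.0393 and 15.6 CPM in cadmium cultures.

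No member passed the test for cadmium in culture. Of the 31 genes 9 had enough reads to be tested, and 0 were called by edgeR, with adjusted p-values of 0.888 to 0.971, where 0.00597% of 16743 genes were called. The lowest unadjusted p of the 9 was 0.0926, for Pnliprp1 (edgeR, -1.80 ± 1.00), and DESeq2 called 0 of them. Gatm, the best counted, differed by 0.05 ± 0.03 and Tmed6 by -0.10 ± 0.09 log2 units, so both were measured far more closely than Ctrb1 at -0.96 ± 0.96. The difference between the cadmium effects in culture and at 18 weeks, which uses the same 18-week libraries, was called for 1 member, Cela1 (-3.53 ± 0.63, edgeR adjusted p = 0.0499), where 0.0132% of all genes were called lower. Leaving out 1 library moved this count between 0 and 9.

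Other genes of the acinar programme were read from lists. Of 8 trypsinogen and related secretory genes 6 rose at 18 weeks and none fell (edgeR), with a median log2 fold change of 3.72. Try5 and Try4, which encode trypsinogens, rose by 4.51 ± 0.62 and 4.19 ± 0.66, and Spink1, the trypsin inhibitor that acinar cells secrete with them, by 3.71 ± 0.59; trypsinogen counts are uncertain because the genes are near-identical copies. Of 9 genes for stimulation and cell coupling 1 rose, Gjb1, the gap junction protein connexin 32 of acinar cells, by 3.16 ± 0.57 (edgeR, adjusted p = 0.0376). None of 6 acinar transcription factors passed, with a median of 1.75. Rbpjl, the PTF1 subunit, was at 2.72 ± 0.62 (edgeR, adjusted p = 0.0831), Mecom at 0.49 ± 0.18 (0.202), and Bhlha15 (MIST1), which other secretory cells also express, at 0.03 ± 0.10 (0.916). Ptf1a had 0 reads in all 10 cultures.

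No gene of the general secretory machinery passed. None of 20 genes of reticulum load passed at 18 weeks and their median was -0.02; Hspa5, the chaperone BiP, was at 0.14 ± 0.19 (edgeR, adjusted p = 0.726). None of 15 genes of regulated exocytosis passed and their median was 0.13, with Cplx2, complexin 2, at 0.13 ± 0.11 (edgeR, adjusted p = 0.532). Islet endocrine cells express both sets.

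Some markers of other exocrine and non-endocrine cells were also higher with cadmium at 18 weeks. Of 13 duct markers 12 were higher and 1 rose, Tff2, trefoil factor 2, by 3.21 ± 0.57 (edgeR, adjusted p = 0.0376); their summed level was 314 to 412 CPM in vehicle and 430.7 to 694 CPM in cadmium libraries, with a median log2 fold change of 1.44 and no marker at 0. All 8 Reg-family and acinar stress genes were higher, summing to 169 to 643 CPM in vehicle and 316 to 2279 CPM in cadmium libraries, and 1 rose, Clu, clusterin, by 1.18 ± 0.23 (edgeR, adjusted p = 0.0449). None of 10 stellate and fibroblast markers passed (median 1.15, summed 224 to 314 CPM in vehicle and 258 to 317 in cadmium), nor did any of 10 macrophage markers (median 0.40, 184 to 234 and 199.8 to 381 CPM). Endothelial markers had a median of 0.11 with 0 of 7 passing, and summed to 411 to 502 CPM in vehicle and 353 to 495 CPM in cadmium libraries. Lymphocyte markers summed to 12.2 to 28.5 and 10.7 to 80.1 CPM, with 0 of 5 tested passing and a median of 0.87. All 5 were higher with cadmium, as were 9 of 10 stellate and fibroblast, 9 of 10 macrophage and 5 of 7 endothelial markers. Of the endocrine hormones 6 of 7 were higher, and of the beta cell identity genes 3 of 8. Beta cell identity genes had a median of -0.04 and endocrine hormones of 0.13, with 0 of 8 and 0 of 7 passing. No marker of these lists was at 0 in every library of an 18-week group, and the part of these cells in the result was not tested.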

How the data were processed

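The authors deposited 1 table of read counts for each library, with a whole number per Ensembl gene ID and no normalization. Per the submitters' processing notes, cutadapt 1.13, STAR, HTSeq 0.6.1p1, DESeq2 and build mm10 were used upstream; strandedness and the treatment of multi-mapping reads are not given in the sources used. Symbols were matched for 54079 of 54232 IDs, and gene coordinates come from GENCODE for mm10. Total counts ran from 9092759 to 58366797 per library.

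Every pair of groups had its own fit with edgeR 4.0.16 in R 4.3.3 (quasi-likelihood test, filterByExpr with minimum count 10 and minimum total 15, TMM scaling, the trimmed mean of M values). Benjamini-Hochberg adjustment ran over all genes tested and calls are at an adjusted p under 0.05. Differences between cadmium effects were contrasts in 1 fit of all 30 libraries. CPM use library totals, RPKM use TMM-scaled sizes and merged exon lengths, and fold changes are log2 ± SE. DESeq2 1.42.0 and limma 3.58.1 were alternatives, with other filters, scalings, leave-outs and a replicate block. The scripts were run on simulated counts with genes drawn independently, which does not cover the shared deviations of whole libraries seen here.

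Members and lists were chosen with earlier results of these data known. Values in each library are given for the member of highest mean CPM in each role and for the 3 of largest and 3 of smallest log2 fold change at 18 weeks; the other members are given by range or log2 fold change. From other lists, at most 3 genes each are named, those called with the smallest p or else the most abundant.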

Additional observations from a re-analysis of the deposited data

Results flagged for a closer look

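Among 76 sets of values, each from a group of 4 to 6 libraries, 8 held a library far from the rest. For independent sets of normal values chance alone gives about 1 in 20, but these sets reuse the same libraries for genes that vary together. In culture, cadmium 5 stood above the other 4 cadmium cultures for the share of the 31 genes (0.0129% against 0.00901 to 0.00943%), Pnlip (0.379 CPM against 0 to 0.0787), Ctrb1 (15.6 CPM against 0.0393 to 2.64) and Cpb1 (2.39 CPM against 0 to 0.0753). Vehicle culture 2 was low for Rnase1, at 0.594 CPM against 1.05 to 1.21, and vehicle culture 4 was high for Sycn, at 0.453 CPM against 0 to 0.117. At 18 weeks vehicle 2 was high for Dmbt1, at 660.4 CPM against 69.8 to 276, and for Cela3a, at 1.09 CPM against 0 to 0.345.

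For 5 of the members with values in each library, the cadmium effect at 18 weeks exceeded that at 6 weeks by the edgeR contrast, by 2.80 log2 units for Pnlip, 2.78 for Rnase1, 3.20 for Sycn, 3.51 for Pdia2 and 1.06 for Gatm.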

How the results depend on the processing

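At 18 weeks all 651 log2 fold changes of the 31 genes under 21 alternatives were above 0, but the count called moved from 25 to 0 with a replicate block, without the 3 shallow libraries, by limma-voom with library weights, and, in an alternative chosen after seeing the data, with only the libraries whose number both groups hold. It was 25 to 30 under the other scalings, no filter, DESeq2 and a fit of all 30 libraries, and 0 to 30 with 1 library left out. Over all genes the 75 called became 484 by DESeq2, 140 with no filter, 2496 in the fit of all libraries, 1 with the block, 0 without the shallow libraries and 0 to 318 with 1 library left out. The contrast of 18 with 6 weeks called 21 members, 7 by DESeq2, 0 with library totals and 0 to 27 with 1 library left out; over all genes 382 became 634 by DESeq2, 192 with no filter, 5 with totals and 2546 without the shallow libraries. Over all genes the 1 call in culture became 7 with no filter, 223 with the block and 0 in the fit of all libraries, the 0 at 6 weeks became 10 by DESeq2, and the 4 of the contrast of culture with 18 weeks became 44 by DESeq2 and 1057 without the shallow libraries. The contrast of culture with 18 weeks called 1 member, 8 by DESeq2, 0 with acinar genes left out before TMM, 7 without the shallow libraries and 0 to 9 with 1 library left out. No member was called at 6 weeks or in culture in any alternative. The fall of vehicle from 6 to 18 weeks was called for 27 to 30 members.

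Reversed values were those of Gatm at 6 weeks (-0.014 to 0.13 with 1 library left out), Ctrl (-0.57 to 0.25) and Dmbt1 (-0.34 to 1.22) in culture, Cela3a in the contrast of 18 with 6 weeks (-0.12 to 1.92), and Tmed6 between vehicle groups (0.0037 without the shallow libraries). The 6-week vehicle share was 4.24% with the insulin genes out of the total, and per kilobase Ctrb1 took 25.8, 28.5, 15.04 and 19.8% of the pool (vehicle and cadmium at 6, then 18 weeks). The causes were not tested.

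Replicate numbers were not taken as pairs, since not every same-numbered pair correlated clearly above 0: deviations of same-numbered libraries correlated at -0.078 to 0.144 at 6 weeks, -0.087 to 0.273 at 18 weeks and 0.0754 to 0.292 in culture, where each correlated best with its own number, a hint from the data only. The fit with the block also left out vehicle 6 at 18 weeks, whose number the cadmium group does not hold. It called 0 members there, and so did the same libraries without a block. The part of the block cannot be told from that of the library left out. At 6 weeks and in culture the count of members called was the same with the block. Depth limits Pdia2 and Cela3a at 18 weeks and most members in culture, where 9 of 31 had enough reads to test.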
